A study of Sus scrofa with 23 samples.

Results

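Endothelins are vasoconstrictor peptides and nitric oxide is a vasodilator gas, and the genes of both systems were described here in the kidney cortex of newborn pigs. The 10 genes were fixed by symbol as the endothelin ligands EDN1 and EDN3, the endothelin converting enzyme ECE1, the receptors EDNRA and EDNRB, the nitric oxide synthases NOS1, NOS2 and NOS3, the soluble guanylyl cyclase subunit GUCY1B3 and the natriuretic peptide receptor NPR1. All 10 were found among the 26687 gene symbols of the table that pairs transcripts with genes, 29 transcripts carried them, and all 10 passed the filter on low counts. Total RNA was sequenced from cortex of 23 newborn piglets, 1 library a piglet, of which 11 carried the genotype label CFTR-/- (CF), 6 CFTR+/- (HET) and 6 CFTR+/+ (WT). CFTR is the chloride and bicarbonate channel that is lost in cystic fibrosis, the CF piglets were bred from CFTR+/- parents, no treatment was labelled, and the 12 HET and WT libraries together formed the non-CF group. The labels give neither sex nor litter, and the tissue is a mixture of cells, so that fewer cells of a type and less RNA per cell cannot be told apart.

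In the kidney, an endothelin precursor is cut by ECE1 to the active peptide. The peptide acts through EDNRA, known mainly for contraction of vascular smooth muscle and mesangial cells, and through EDNRB, known mainly in endothelium and collecting duct, where it opposes sodium reabsorption. Nitric oxide is made from arginine by NOS3 in endothelium, by NOS1 in macula densa and neurons, and by NOS2 after inflammatory induction. Nitric oxide activates the cyclase of which GUCY1B3 is the beta subunit, while NPR1 is a membrane receptor that makes the same second messenger, cyclic GMP, in response to atrial and brain natriuretic peptides.

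The mature endothelin peptides show how alike the ligands are and where they differ. The coding run of each mature peptide lies within 1 exon: exon 2 of EDN1 (chr7:8753772-8753834, plus strand), exon 2 of EDN2 (chr6:169752511-169752573, plus strand) and exon 3 of EDN3 (chr17:59426720-59426782, plus strand), read from the RefSeq genome Sscrofa11.1. Capitals in EDN2 and EDN3 mark codons for another amino acid than in EDN1, and capitals in EDN1 mark the codons that differ so from EDN3.
EDN1: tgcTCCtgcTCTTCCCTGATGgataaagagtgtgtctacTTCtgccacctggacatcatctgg
EDN2: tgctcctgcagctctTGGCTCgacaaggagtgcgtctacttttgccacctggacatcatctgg
EDN3: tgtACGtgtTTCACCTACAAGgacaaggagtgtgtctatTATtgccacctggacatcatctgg
Of the 21 residues, 2 differed between EDN2 and EDN1 and 6 between EDN3 and EDN1. Over the 63 bases, EDN2 differed from EDN1 at 12 and EDN3 at 16.

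The members lie apart in the genome, and none overlapped another protein-coding gene. In Sscrofa11.1, EDN1 spans 8752018 to 8758354 on chromosome 7, EDN3 spans 59418667 to 59448382 on chromosome 17 and ECE1 spans 79408322 to 79465827 on chromosome 6. The receptors EDNRA and EDNRB span 81210750 to 81279053 on chromosome 8 and 50073300 to 50102879 on chromosome 11. The synthases NOS1, NOS2 and NOS3 span 35112898 to 35299297 on chromosome 14, 44174944 to 44219875 on chromosome 12 and 6209218 to 6228912 on chromosome 18. GUCY1B3 spans 44544364 to 44604690 on chromosome 8 and NPR1 spans 95957220 to 95974253 on chromosome 4. The closest neighbour of any member was ATG9B, 230 bases from NOS3.

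Estimated counts per library summed to between 32901281 and 52952273, so that 3 counts equal 0.0567 to 0.0912 in CPM, the counts scaled to the size of each library. CFTR, the disrupted gene, was read first as a check of the labels. Its CPM was 12.5 to 23.5 with a median of 20.7 in the 11 libraries labelled CF, 9.41 to 17.5 with a median of 12.1 in the 6 labelled HET, and 1.27 to 3.67 with a median of 2.24 in the 6 labelled WT. CFTR RNA was thus highest under the label that denotes loss of the gene, and since whole transcripts were summed, this does not read the altered part of the gene. Groups are therefore libraries as labelled throughout. In every library, kidney markers stood above those of the adrenal cortex. Summed proximal tubule markers were at 7060 to 13988 CPM over 7 genes, and summed adrenal cortex markers at 7.34 to 11.97 CPM over 5 genes. Admixed kidney medulla was not checked. In a multidimensional scaling of all genes, the libraries fell into 2 sets that followed the pig numbers in the titles: pigs 1 to 6 and 12 to 18 (the earlier set, with 6 CF, 3 HET and 4 WT) and pigs 7 to 11 and 19 to 23 (the later set, with 5 CF, 3 HET and 2 WT). The labels do not say what the numbers stand for.

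Levels per length were compared in TPM, the share of a library's transcripts that a gene takes. ECE1, the converting enzyme, stood highest at 38.4 ± 5.58 TPM (SD, n = 23), followed by the receptors EDNRB at 25.3 ± 6.27 and EDNRA at 15.6 ± 2.91. NPR1 was at 12.3 ± 2.08 TPM and GUCY1B3 at 8.98 ± 1.304. The synthases lay lower, with NOS3 at 3.53 ± 0.651 TPM, NOS1 at 2.63 ± 0.973 and NOS2 at 2.42 ± 0.508. The ligands were lowest, EDN3 at 1.44 ± 0.614 TPM and EDN1 at 0.672 ± 0.289, so that mean EDN3 lay above mean EDN1 in this cortex. In rank among all genes with a value, ECE1 exceeded 92.4% of genes, NOS3 52.7% and EDN1 30.6%.

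Most neighbours in that order kept their order in most libraries. ECE1 was above EDNRB in 22 of 23 libraries, EDNRB above EDNRA in 21, EDNRA above NPR1 in 21 and NPR1 above GUCY1B3 in 21. Ranges did not overlap at a single step, from GUCY1B3 (7.29 to 11.2 TPM) to NOS3 (2.57 to 5.26 TPM). NOS3 was above NOS1 in 19 libraries and EDN3 above EDN1 in 21. NOS1 was above NOS2 in 11 of 23 libraries, so these neighbours were not separated. A single short transcript, of another gene, took 42.1% to 53.2% of all TPM in each library, which lowers every TPM but not the order within a library.

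**Figure D1:**
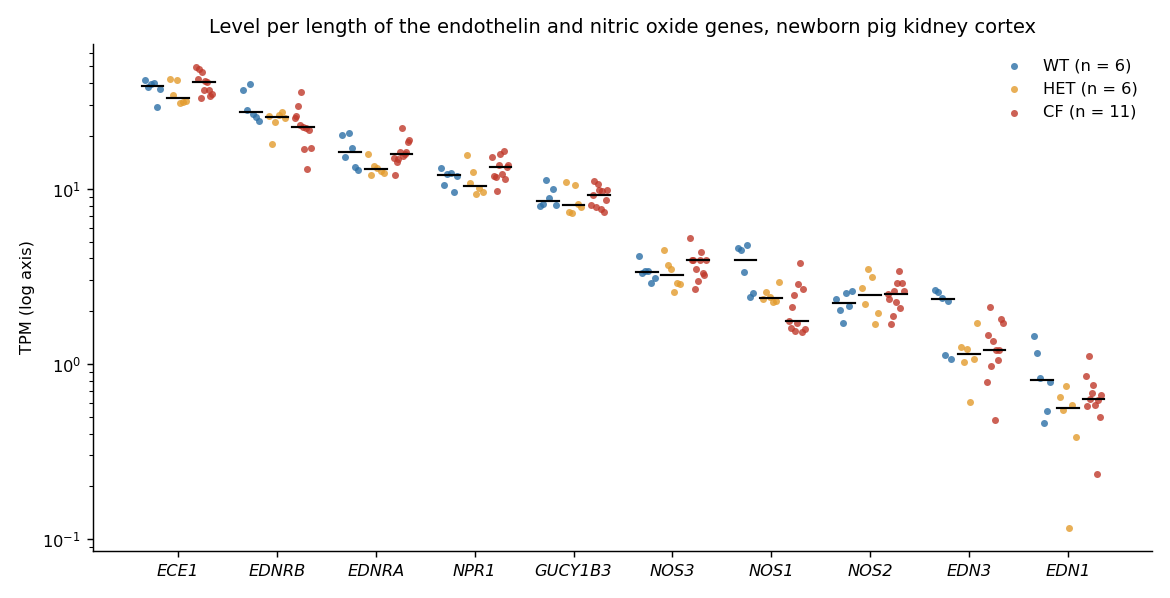
TPM (log axis) of the 10 genes in each of 23 libraries, in order of mean level, with WT in blue, HET in orange and CF in red; each point is a library and each bar a group median. ECE1 stands highest and EDN1 lowest, and the NOS1 and EDN3 points of the WT label reach above those of the other labels.

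Against the 12 non-CF libraries, no member passed an adjusted p of 0.05 in the 11 CF libraries by edgeR's quasi-likelihood test, where 73 of 20921 genes (0.349%) did. 6 members were higher and 4 lower, with a median log2 difference of 0.073 beside -0.001 over all genes tested. At an unadjusted p of 0.05, 3 members (NOS1, EDNRA and NPR1) and 2868 genes (13.7%) passed. CF against WT likewise called 0 members beside 72 of 21434 genes (0.336%), with 3 members (NOS1, EDN3 and NPR1) and 2991 genes at an unadjusted p of 0.05. HET against WT called 0 members beside 1 gene (0.00467%), with 2 members (EDN3 and NOS1) and 1715 genes at an unadjusted p of 0.05. CF against HET called 0 members and 0 genes (0%), with 1 member (EDNRA) and 2107 genes at an unadjusted p of 0.05. DESeq2 called 1 member, NOS1, and 579 of 18056 genes (3.21%) for CF against WT, and no member in the other 3 comparisons. The comparisons share libraries, so their results are not independent.

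**Figure D2:**
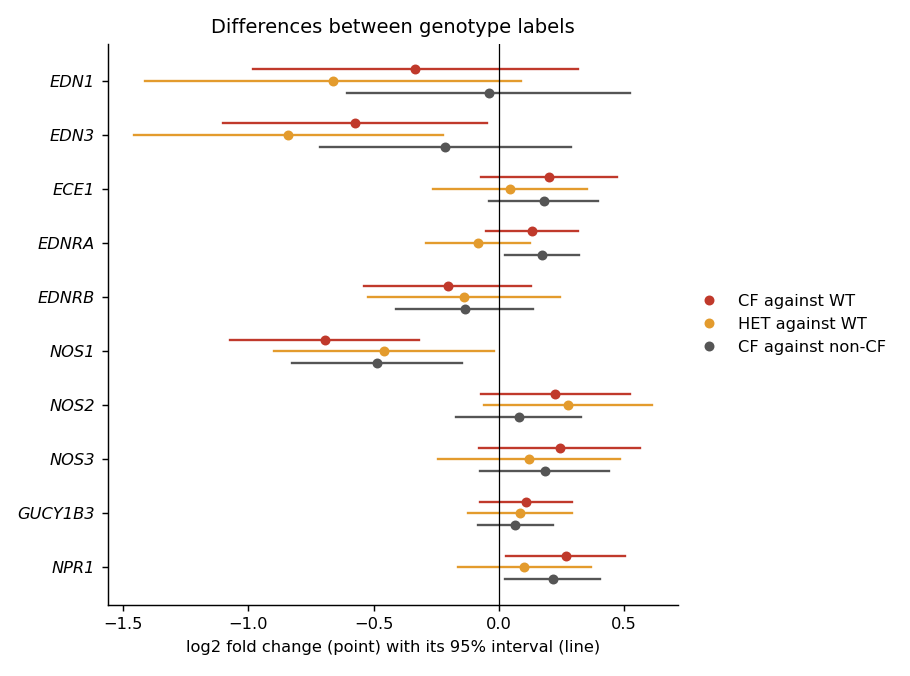
Log2 fold change of each gene (horizontal axis) for CF against WT (red), HET against WT (orange) and CF against non-CF (grey); points are estimates and lines 95% intervals, before adjustment over genes. The intervals of NOS1 lie below 0 in all 3 comparisons, and most others cross 0.

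Of the ligands, EDN1, the main endothelin of vascular endothelium, was read from few fragments. The 11 CF libraries held 17 to 75 counts with a median of 45, HET held 7 to 53 with a median of 47, and WT held 26 to 96 with a median of 56. In CPM the groups had 1.08 ± 0.373 (SD, n = 11), 0.861 ± 0.397 (SD, n = 6) and 1.36 ± 0.666 (SD, n = 6) and overlapped, with the lowest value in a HET library. CF against non-CF differed by -0.040 on the log2 scale (95% interval -0.61 to 0.53, adjusted p = 0.974). HET against WT differed by -0.66 (interval -1.41 to 0.091, adjusted p = 0.669), so neither a fall nor a lack of difference was detectable at these counts.

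EDN3, the ligand that binds EDNRB in preference to EDNRA, had its widest spread in the WT group. CPM was 1.24 to 4.36 with a median of 2.98 in CF, 1.65 to 3.26 with a median of 2.62 in HET, and 1.91 to 6.85 with a median of 4.69 in WT. All 11 CF and all 6 HET libraries lay below the WT median, yet the WT group fell into 3 libraries at 6.11, 6.55 and 6.85 CPM and 3 at 1.91, 1.95 and 3.28, the latter within the range of the other labels. HET was lower than WT by a log2 value of -0.84 (SE 0.299, adjusted p = 0.541, exact permutation p = 0.113) and CF than WT by -0.57 (SE 0.257, adjusted p = 0.310, exact permutation p = 0.193). The 3 high WT libraries were all of the earlier set. There, CF against WT was -0.99 (SE 0.326, adjusted p = 0.205). In the later set it was 0.38 (SE 0.291, adjusted p = 0.662).

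EDN2, the remaining endothelin, is no member and was looked at after its values were seen. It was read from 7 to 28 counts in CF libraries, 10 to 19 in HET and 1 to 11 in WT. All 11 CF and all 6 HET libraries exceeded the WT median of 0.137 CPM, with log2 differences against WT of 1.44 for CF (SE 0.355, adjusted p = 0.0666) and 1.15 for HET (SE 0.394, adjusted p = 0.541). Without CF pig 4 the adjusted p for CF against WT was 0.0371, and it reached 0.146 without WT pig 18, whose library held the single count.

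ECE1, the protease that activates the endothelins, had 136 to 258 CPM with a median of 182 in CF, 123 to 197 with a median of 155 in HET and 117 to 182 with a median of 154 in WT. The groups overlapped, and CF against non-CF differed by 0.18 (SE 0.105, interval -0.038 to 0.40, adjusted p = 0.478). Its level also moved with the pig numbers. Later libraries were lower than earlier ones by a log2 value of -0.31 (SE 0.0910, adjusted p = 0.0332), and ECE1 was the single member among the 2077 of 21434 genes (9.69%) called between the sets.

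The receptor EDNRA varied little between libraries. CPM was 30.7 to 45.1 with a median of 39.2 in CF, 30.8 to 38.8 with a median of 34.0 in HET, and 30.6 to 45.3 with a median of 34.6 in WT. 10 of 11 CF libraries lay above the non-CF median, and CF against non-CF differed by 0.17 (SE 0.0723, interval 0.024 to 0.32, p = 0.0249, adjusted p = 0.277, permutation p = 0.0280). CF against HET differed by 0.21 (SE 0.0891, adjusted p = 0.440). HET against WT differed by -0.081 (interval -0.29 to 0.13, adjusted p = 0.874).

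EDNRB, the receptor of endothelium and collecting duct, ran from 48.9 to 115 CPM with a median of 66.8 in CF, 59.1 to 89.7 with a median of 80.5 in HET and 68.8 to 119 with a median of 79.5 in WT. The groups overlapped, and CF against non-CF differed by -0.14 (SE 0.133, interval -0.41 to 0.14, adjusted p = 0.715). HET against WT differed by -0.14 (SE 0.186, adjusted p = 0.883).

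NOS1, the neuronal synthase that in kidney marks the macula densa, had the smallest p of the members. CPM was 13.2 to 30.2 with a median of 18.3 in CF, 20.01 to 29.9 with a median of 23.5 in HET, and 19.9 to 43.7 with a median of 34.2 in WT. All 11 CF and all 6 HET libraries lay below the WT median, but the ranges overlapped. CF was lower than WT by a log2 value of -0.70 (SE 0.184, 95% interval -1.07 to -0.32), a ratio of 0.618, with an adjusted p of 0.0802 and an exact permutation p of 0.0128. CF against non-CF differed by -0.48 (SE 0.165, adjusted p = 0.167), HET against WT by -0.46 (SE 0.213, adjusted p = 0.624) and CF against HET by -0.24 (SE 0.186, adjusted p = 0.708).

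The call on NOS1 in CF against WT depended on the tool and on single libraries. DESeq2 gave a log2 difference of -0.69 with an adjusted p of 0.0178. Leaving out each library in turn gave -0.81 to -0.60 with adjusted p from 0.0428 (without WT pig 23, where 0.868% of genes were called) to 0.195 (without WT pig 16). The markers of cells that neighbour or hold NOS1 were read beside it. Thick ascending limb and macula densa markers summed to 923 to 1643 CPM in CF and 933 to 1513 in WT. Of these 5 markers, 1 was higher and 4 lower for CF against WT, from -0.60 to 0.52 with a median of -0.045. SLC12A1, the sodium, potassium and chloride cotransporter of that limb, differed by -0.32 for CF against WT (SE 0.0977, p = 0.00276, adjusted p = 0.115), and UMOD, its secreted glycoprotein, by 0.52 (SE 0.224, adjusted p = 0.291). Distal convoluted tubule markers summed to 298 to 537 CPM in CF, 272 to 1088 in HET and 593 to 789 in WT, without overlap of CF and WT. Their part in the NOS1 difference was not tested.

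NOS2, the inducible synthase, was at 6.52 to 12.3 CPM with a median of 10.1 in CF, 6.96 to 15.1 with a median of 9.97 in HET and 6.22 to 9.71 with a median of 8.88 in WT. CF against non-CF differed by 0.080 (SE 0.122, interval -0.17 to 0.33, adjusted p = 0.841). NOS3, the endothelial synthase, was at 9.52 to 23.5 CPM with a median of 13.4 in CF, 8.75 to 17.3 with a median of 12.99 in HET and 9.81 to 15.3 with a median of 11.3 in WT, with a difference of 0.18 for CF against non-CF (SE 0.126, interval -0.076 to 0.44, adjusted p = 0.565). The ranges of both synthases overlapped between the labels. Within the later set NOS3 differed by 0.40 for CF against non-CF (SE 0.119, p = 0.00548, adjusted p = 0.103), and within the earlier set by 0.062 (SE 0.173, adjusted p = 0.949). In the later set, NOS3 was at 16.1, 13.9, 14.1, 10.99 and 13.2 CPM in CF, at 8.75, 11.12 and 11.9 in HET and at 9.81 and 10.6 in WT, so that 1 CF library lay within the non-CF range. The difference between the sets was 0.33 (SE 0.235, adjusted p = 0.675). Within libraries, the TPM of NOS3 relative to NOS1 was 1.08 to 2.98 with a median of 1.85 in CF, 0.978 to 1.92 with a median of 1.34 in HET and 0.710 to 1.21 with a median of 0.956 in WT. Its median was 2.05 in CF and 0.817 in WT of the earlier set, but 1.36 and 1.21 in the later, where both WT libraries lay within the CF range of 1.17 to 2.49. The ratio was computed after the values were seen and has no test.

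GUCY1B3, which encodes the heme-binding subunit of the nitric oxide receptor, had the smallest relative spread of the members in CF (coefficient of variation 10.3%). CPM was 22.7 to 30.5 with a median of 25.1 in CF, 21.9 to 31.9 with a median of 24.2 in HET and 21.1 to 28.8 with a median of 23.2 in WT. CF against non-CF differed by 0.066 (SE 0.0724, interval -0.083 to 0.22, adjusted p = 0.753).

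NPR1, the receptor of the natriuretic peptides, was at 53.9 to 90.5 CPM with a median of 65.1 in CF, 42.9 to 80.1 with a median of 55.1 in HET and 43.8 to 65.8 with a median of 54.9 in WT. 9 of 11 CF libraries lay above the non-CF median, and the ranges overlapped. The log2 difference was 0.21 for CF against non-CF (SE 0.0927, interval 0.024 to 0.41, adjusted p = 0.295, permutation p = 0.0300) and 0.27 for CF against WT (SE 0.115, adjusted p = 0.289, exact permutation p = 0.0139). HET against WT differed by 0.10 (SE 0.129, adjusted p = 0.876). These permutation tests were two-sided and belong to a family of 40, 4 comparisons of 10 genes. The smallest p that such an exact test can give is 0.000162 for 11 against 6 libraries and 0.00217 for 6 against 6, while the smallest found for a member was 0.0128 and 0.104, both for NOS1.

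Within the number sets the members differed in which label stood apart. In the earlier set, NOS1 was at 43.7, 43.7, 29.7 and 38.6 CPM in the 4 WT libraries, at 22.6, 25.5 and 24.4 in the 3 HET libraries and at 14.7 to 26.6 with a median of 17.3 in the 6 CF libraries. CF and WT did not overlap, as in 675 of 20921 genes (3.23%). CF against WT was -1.08 there (SE 0.155, adjusted p = 0.0201), 1 of 7 genes called of 21627 (0.0324%), and CF against non-CF was -0.82 (SE 0.185, adjusted p = 0.155). No member separated all 6 CF from all 7 non-CF libraries of that set, beside 132 of 20921 genes (0.631%).

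In the later set, NOS1 was at 29.7, 30.2, 16.9, 23.4 and 13.2 CPM in the 5 CF libraries, at 20.01, 21.7 and 29.9 in HET and at 19.9 and 22.3 in WT. The WT libraries lay inside the CF range. CF against WT was 0.12 (SE 0.275, adjusted p = 0.916) and CF against non-CF was 0.00 (SE 0.205). The difference of the CF effect on NOS1 between the sets was 0.82 on the log2 scale (SE 0.298, p = 0.0114, adjusted p = 0.323). No member passed this test of the difference, and 4 of 20921 genes (0.0191%) did.

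**Figure D3:**
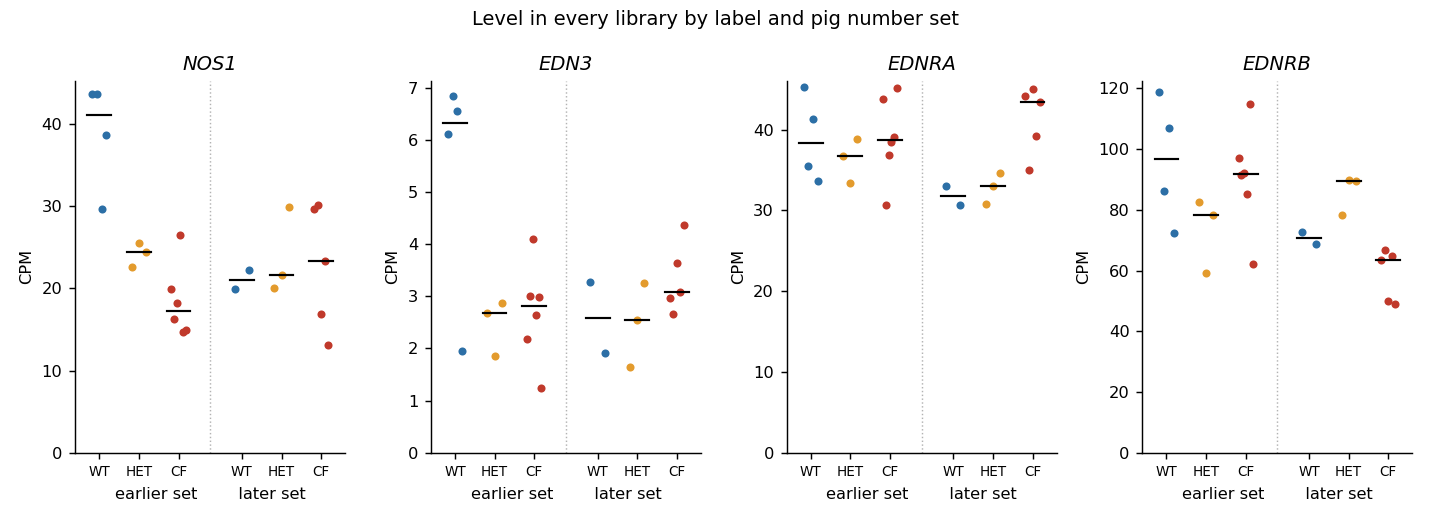
CPM of NOS1, EDN3, EDNRA and EDNRB in every library, split by number set (earlier left, later right of the dotted line) and label; points are libraries and bars medians. The high NOS1 and EDN3 libraries are WT libraries of the earlier set, while EDNRA and EDNRB separate the 5 CF from the 5 non-CF libraries in the later set.

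Both receptors and NPR1 separated the labels in the later set. There, EDNRA was at 44.2, 35.0, 45.0, 39.2 and 43.4 CPM in CF, at 30.8, 33.0 and 34.6 in HET and at 33.1 and 30.6 in WT. EDNRB was at 63.3, 66.8, 49.9, 64.8 and 48.9 CPM in CF, at 78.4, 89.7 and 89.4 in HET and at 72.7 and 68.8 in WT. Every CF library of the later set was thus above every non-CF library for EDNRA and below every one for EDNRB. NPR1 was also higher in each CF library, at 67.2, 70.0, 65.1, 61.0 and 61.7 CPM against 42.9, 51.7 and 53.7 in HET and 43.8 and 54.5 in WT. These 3 of 10 members did not overlap between the labels, beside 971 of 20921 genes (4.64%).

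By the test across all genes within the later set, EDNRA differed by 0.36 (SE 0.0854, adjusted p = 0.0464) and NPR1 by 0.40 (SE 0.0856, adjusted p = 0.0274), where 2.27% of genes were called. EDNRB differed by -0.44 (SE 0.113, adjusted p = 0.0638) from non-CF and by -0.54 (SE 0.116, adjusted p = 0.0297) from HET, where 2.42% of genes were called, while its difference from WT was -0.26 (SE 0.133, adjusted p = 0.489). Against HET, EDNRA differed by 0.34 (adjusted p = 0.118) and NPR1 by 0.40 (adjusted p = 0.0672), and against WT by 0.39 (adjusted p = 0.213) and 0.42 (adjusted p = 0.187), and none of the 4 passed. In the earlier set EDNRB differed from HET by 0.30 (SE 0.186, adjusted p = 0.993), in the other direction. There the comparisons with non-CF gave 0.047 for EDNRA (SE 0.0992, adjusted p = 0.931), 0.10 for NPR1 (SE 0.124, adjusted p = 0.856) and 0.071 for EDNRB (SE 0.158, adjusted p = 0.936). The differences between the sets did not pass, with 0.31 for EDNRA (SE 0.133, adjusted p = 0.425), 0.30 for NPR1 (SE 0.166, adjusted p = 0.565) and -0.51 for EDNRB (SE 0.213, adjusted p = 0.398). In the earlier set, summed distal convoluted tubule markers of CF and HET overlapped, at 298 to 537 and 272 to 474 CPM. WT was at 593 to 789 CPM in that set. In the later set CF and non-CF did not overlap, at 359 to 423 and 645 to 1088 CPM. Sums of other lists overlapped there between CF and non-CF, at 759 to 1001 and 688 to 848 CPM for smooth muscle, mesangium and pericytes, 213 to 273 and 223 to 289 for collecting duct, 802 to 1063 and 913 to 1021 for endothelium and 101 to 134 and 116 to 162 for macrophages and neutrophils. The part of these cells in the receptor differences was not tested.

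The balance of the receptors was read within each library of both sets. The TPM of EDNRB relative to EDNRA was 0.806 to 1.41 in the 5 CF libraries and 1.89 to 2.16 in the 5 non-CF libraries of the later set. In the earlier set it was 1.01 to 2.22 in CF and 1.501 to 1.91 in non-CF, which overlapped. This ratio was chosen after the values were seen and has no test.

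**Figure D4:**
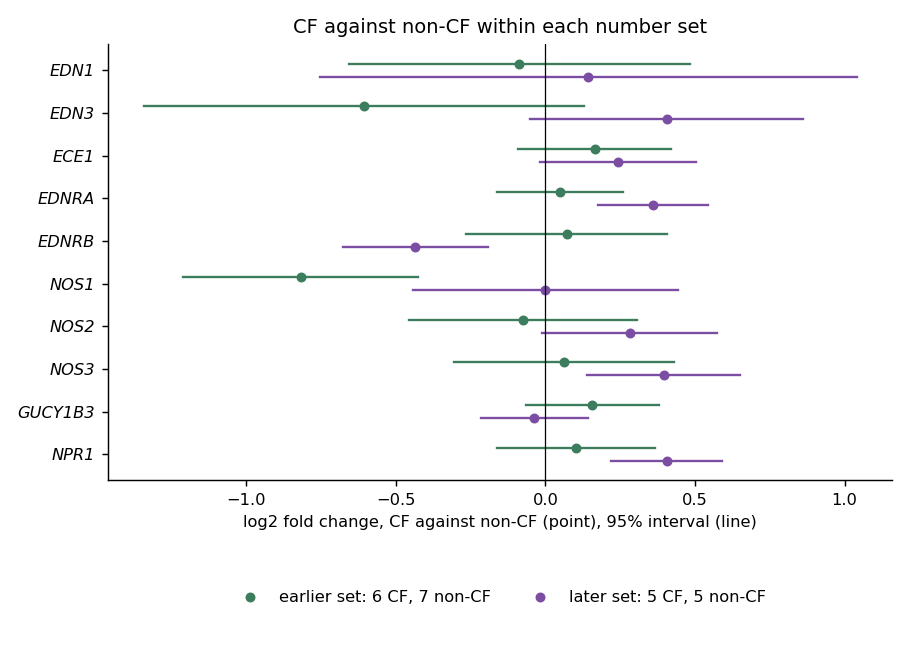
Log2 fold change of CF against non-CF for each gene within the earlier set (green, 6 against 7 libraries) and the later set (purple, 5 against 5); points are estimates and lines 95% intervals. NOS1 lies at -0.82 in the earlier set and at 0.00 in the later, and the intervals of EDNRA, EDNRB, NOS3 and NPR1 exclude 0 in the later set, before adjustment over genes.

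Between the sets, 9 of 10 members were lower in later than in earlier libraries, with a median log2 difference of -0.16 beside -0.001 over all genes. EDN1 was lower by a log2 value of -0.67 (SE 0.240, adjusted p = 0.0755) and EDNRB by -0.35 (SE 0.122, adjusted p = 0.0668), and neither passed. Markers of cells that carry these genes were read between the sets as well. Of all genes, 9.69% were called and 26.4% passed an unadjusted p of 0.05. Of 14 endothelial markers, 5 were higher and 9 lower in the later set, with a median of -0.19. Among them 2 were called lower, VWF by -1.11 (SE 0.269, adjusted p = 0.0136) and CDH5 by -0.39 (SE 0.0991, adjusted p = 0.0164). Summed endothelial markers were at 860 to 1300 CPM in earlier and 802 to 1063 in later libraries. Of 8 collecting duct markers 3 were higher and 5 lower, and 3 were called lower. The sum of the 8 was at 190 to 388 CPM in earlier and 213 to 289 in later libraries. All 6 interstitial fibroblast markers were lower in the later set, with a median of -0.31 and COL3A1 called at -0.41 (SE 0.106, adjusted p = 0.0179), and their sum was at 2980 to 6169 CPM in earlier and 2443 to 4176 in later libraries. Of 10 markers of smooth muscle, mesangium and pericytes 8 were lower, with a median of -0.18 and 0 called, 4 of them at an unadjusted p of 0.05. Of 7 proximal tubule markers 6 were higher and 1 lower, and 3 were called higher, SLC22A6 among them by 1.37 (SE 0.289, adjusted p = 0.00676). Their part in the members' differences was not tested.

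The NOS1 gene offers a closer look, since its 6 annotated transcripts begin at starts of 2 groups that lie 62968 bases apart on the plus strand of chromosome 14. The 250 bases before the first start of each group are printed to show the sequence that precedes the alternative first exons. The upstream window is chr14:35112648-35112897 and the downstream window chr14:35175616-35175865, both on the plus strand of the RefSeq genome Sscrofa11.1, with capitals on matches to GGGCGG on either strand.
NOS1 upstream: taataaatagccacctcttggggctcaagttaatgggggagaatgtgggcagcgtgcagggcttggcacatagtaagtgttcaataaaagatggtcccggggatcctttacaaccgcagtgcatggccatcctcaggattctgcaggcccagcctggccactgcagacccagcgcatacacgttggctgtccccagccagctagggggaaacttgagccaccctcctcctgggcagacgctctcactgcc
NOS1 downstream: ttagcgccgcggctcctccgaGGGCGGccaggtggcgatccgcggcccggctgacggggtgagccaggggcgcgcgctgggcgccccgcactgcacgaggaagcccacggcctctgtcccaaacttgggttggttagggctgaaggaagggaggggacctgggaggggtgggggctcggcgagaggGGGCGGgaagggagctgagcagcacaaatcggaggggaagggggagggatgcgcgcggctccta
The windows held 57.2% and 72.4% G and C. GGGCGG had 2 matches downstream and 0 upstream, and 45.9% of the 250-base windows before the starts of 19556 coding genes held it. The TATA box letters TATAAA were held by 9.77% of those windows, the CAAT box letters CCAAT by 31.9%, the cyclic AMP response letters TGACGTCA by 1.7% and the AP-1 letters TGACTCA by 2.9%, and neither window matched any of them on either strand.

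The split of NOS1 between its start groups overlapped between the labels. Transcripts of the downstream group took 9.94% to 30.5% of the estimated counts of NOS1 with a median of 24.8% in CF, 18.97% to 31.4% with a median of 26.3% in HET and 21.5% to 33.6% with a median of 24.9% in WT. CF pig 6 was the low library, at 57.5 estimated counts downstream beside 520.9 upstream. The mean share was 23.8% ± 5.21 (SD, n = 11) in CF and 25.9% ± 4.19 (SD, n = 6) in WT (exact two-sided permutation p = 0.442). HET against WT gave p = 0.853 by the same exact test. The upstream share rests on estimates among overlapping transcripts, of which the one with most counts, 74.5% of the gene, is also the longest at 11248 bases.

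**Figure D5:**
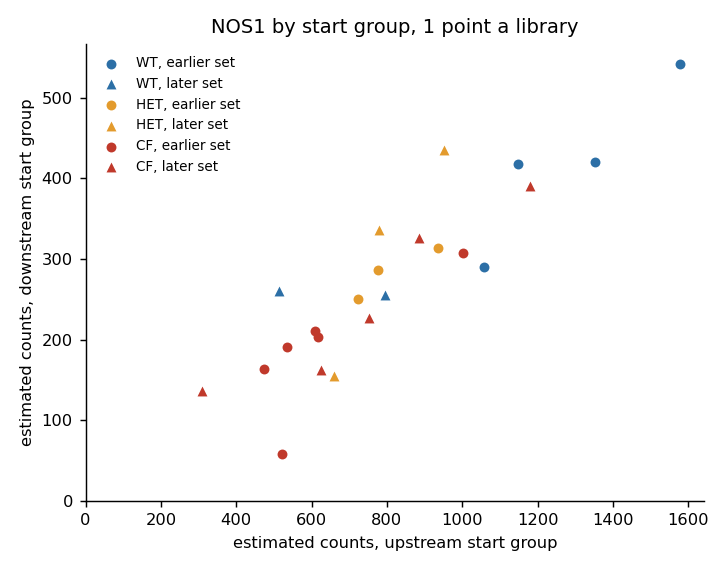
Estimated counts of NOS1 transcripts of the downstream start group (vertical axis) against the upstream group (horizontal axis), 1 point a library, colored by label, with circles for the earlier and triangles for the later set. The counts rise together, the earlier WT libraries lie furthest to the right apart from a later CF library, and CF pig 6 lies lowest at 57.5 downstream counts.

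For the other members, transcript shares were taken over all 23 libraries, with no comparison of labels. EDN1, ECE1, NOS3 and NPR1 have 1 annotated transcript each. The longer transcript of EDN3 took 71.9% to 100% of its counts, that of EDNRB 71.1% to 87.6% and that of EDNRA 65.5% to 82.5%. NOS2 counts were spread more widely, its leading transcript holding 30.9% to 72.8%, as were those of GUCY1B3, whose leading transcript of 6 held 18.2% to 70.7%.

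Other genes of the pathways were taken from 4 lists, and none was called in the 4 comparisons of labels. Between the number sets, where 9.69% of all genes were called, CAV1 was called lower by -0.81 (SE 0.119, adjusted p = 0.000414). PDE5A was called at -0.22 (adjusted p = 0.0332), GUCY2C at 0.40 (adjusted p = 0.00792) and CALM2 at 0.23 (adjusted p = 0.0297). For CF against non-CF, 13.7% of all genes passed an unadjusted p of 0.05, and the count of each list stands beside that share. In the endothelin pathway list of 19 genes, 11 were higher and 8 lower in CF than in non-CF, with a median of 0.006 beside -0.001 over all genes, and 5 passed an unadjusted p of 0.05. The smallest p belonged to KEL, a protease of red cells that can cut big endothelin-3, at 1.21 ± 0.252 CPM (SD, n = 11) against 1.62 ± 0.432 (SD, n = 12), a difference of -0.42 (SE 0.145, adjusted p = 0.182). PLCB2, a phospholipase C downstream of Gq, differed by -0.29 (SE 0.106, adjusted p = 0.210). Of 25 tested genes of nitric oxide synthesis and its control, 9 were higher and 16 lower with a median of -0.067, and 4 passed an unadjusted p of 0.05. DYNLL1, a dynein light chain first described as an inhibitor of NOS1, differed by -0.33 (SE 0.129, adjusted p = 0.232). PRMT1, which methylates arginine in proteins and so yields the synthase inhibitor asymmetric dimethylarginine, differed by -0.24 (SE 0.0940, adjusted p = 0.240).

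Of 20 tested cyclic GMP genes, 10 were higher and 10 lower in CF than in non-CF, with a median of -0.011 and 1 at an unadjusted p of 0.05. ABCC5, an exporter of cyclic nucleotides, differed by -0.15 (SE 0.0687, adjusted p = 0.317), and PRKG1, the cyclic GMP dependent kinase of smooth muscle, by 0.12 (SE 0.0705, adjusted p = 0.464). Of 11 natriuretic peptide and guanylin genes 6 passed the filter, 4 higher and 2 lower with a median of 0.088 and 1 at an unadjusted p of 0.05. FURIN, a proprotein convertase, differed by 0.24 (SE 0.105, adjusted p = 0.298). CORIN, the protease that activates pro-atrial natriuretic peptide, differed by 0.21 (SE 0.115, adjusted p = 0.420) from non-CF and by 0.39 (SE 0.131, adjusted p = 0.163) from WT.

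No marker of the cells that hold or adjoin the members was called between labels. Of 14 endothelial markers 8 were higher and 6 lower in CF than in non-CF with a median of 0.021, among them ERG at 0.28 (SE 0.0865, adjusted p = 0.126) and KDR at -0.26 (SE 0.0838, adjusted p = 0.149). Of 10 markers of smooth muscle, mesangium and pericytes 7 were higher and 3 lower with a median of 0.16, RGS5 at 0.25 (SE 0.0817, adjusted p = 0.156) and NOTCH3 at 0.33 (adjusted p = 0.380) among them. Of 5 thick ascending limb and macula densa markers 4 were lower, SLC12A1 at -0.28 (SE 0.0808, adjusted p = 0.0966), and UMOD was at 0.28 (adjusted p = 0.544). All 4 distal convoluted tubule markers were lower, CALB1 by -1.40 (SE 0.345, adjusted p = 0.0636) and SLC12A3 by -0.64 (SE 0.172, adjusted p = 0.0843), and none of the 4 was called. The genes with the smallest p in other lists were SYNPO (0.49, adjusted p = 0.189) and PODXL (0.14, 0.603) of podocytes, CUBN (0.24, 0.198) and SLC34A1 (0.17, 0.584) of proximal tubule, and SCNN1B (0.19, 0.418) and SCNN1A (0.21, 0.432) of collecting duct. COL1A1 (-0.13, 0.872) and PDGFRA (0.012, 0.974) led the fibroblast list, AIF1 (-0.30, 0.338) and S100A8 (-0.82, 0.516) the macrophage and neutrophil list, and HSD3B1 (0.27, 0.657) and CYP21A2 (-0.26, 0.780) the adrenal list, each with its log2 difference and adjusted p. In these lists, 3 podocyte markers were higher and 3 lower, 5 and 2 of proximal tubule, and 5 and 3 of collecting duct. Of fibroblast markers 4 were higher and 2 lower, of macrophage and neutrophil markers 3 and 5, and of adrenal markers 2 and 2. Summed macrophage and neutrophil markers, beside which NOS2 is read, were at 101 to 206 CPM in CF, 98.9 to 162 in HET and 111 to 159 in WT.

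Across the 23 libraries, the members were described by the correlation of log2 CPM over libraries that differ in depth and in number set, so that differences between the sets enter each r. Of 45 pairs, 35 were positive. The highest were ECE1 with NOS3 (r = 0.86), NOS3 with NPR1 (r = 0.80) and ECE1 with NPR1 (r = 0.73), and the lowest was NOS1 with GUCY1B3 (r = -0.42). ECE1, NOS3 and NPR1 were each highest in CF pig 1, at 258, 23.5 and 90.5 CPM, and no r was computed without that library. Several members ran with more than 1 marker list. ECE1 had r = 0.71 with summed endothelial, 0.71 with collecting duct, 0.68 with interstitial fibroblast and 0.65 with smooth muscle markers. NOS3 had r = 0.75 with smooth muscle and 0.69 with endothelial markers, and EDN1 had 0.60 with endothelial and 0.59 with collecting duct markers. EDN1, EDN3 and EDNRA ran with the interstitial fibroblast markers at r = 0.69, 0.60 and 0.54, beside 0.502 for EDNRA with those of smooth muscle, and EDNRB ran with the collecting duct markers at r = 0.75 and the fibroblast markers at 0.58. NPR1 ran against the distal convoluted tubule markers at r = -0.63, and NOS1 had r = 0.43 with those markers and -0.023 with the thick ascending limb and macula densa markers. SLC12A1 was the most abundant gene of that last list, so its sum does not read the macula densa alone.

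The genes most like each member over the 23 libraries were taken from 20920 others. For ECE1 they were SLC35E2B (r = 0.94), LAMC3 (r = 0.92) and LTBP4 (r = 0.91), and for NOS3 GRASP (r = 0.90), AXL (r = 0.88) and MAML1 (r = 0.88). For NPR1 they were INSR (r = 0.89), PDK2 (r = 0.88) and THBD (r = 0.88), and for EDNRB MDFIC (r = 0.85), ID3 (r = 0.84) and CLDN11 (r = 0.81). EDNRA came nearest to RPS6KA5 (r = 0.82), NFATC4 (r = 0.80) and NPTX1 (r = 0.79). NOS1 came nearest to MEST (r = 0.83), LOC110257546 (r = 0.81) and PASK (r = 0.81), and EDN3 to KIAA1024 (r = 0.83), EMP3 (r = 0.75) and MOXD1 (r = 0.74). EDN1 came nearest to NKD2 (r = 0.81), NCAM1 (r = 0.80) and C1QA (r = 0.80), GUCY1B3 to MBD2 (r = 0.78), ADAM9 (r = 0.78) and ATF6 (r = 0.77), and NOS2 to WSCD1 (r = 0.77), LOC102158467 (r = 0.71) and CTSF (r = 0.71).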

How the data were processed

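The authors extracted total RNA from kidney cortex of newborn pigs, depleted ribosomal RNA, made stranded libraries and pseudoaligned the reads to Sscrofa11.1 with kallisto. The deposited files, 1 a library, give each transcript an estimated count and a TPM value. Here the estimated counts were summed per gene symbol with the deposited table of 77689 transcripts and rounded, and TPM values were summed likewise. 25476 genes had a count. CPM used TMM factors, and log2 CPM a prior count of 2. The main test was edgeR 4.0.16 (R 4.3.3) by its quasi-likelihood fit with filterByExpr and Benjamini-Hochberg adjustment, checked on simulated data; DESeq2 1.42.0, other scalings and filters, each number set, an exact Mann-Whitney U test (the test of the study's methods) and leaving out each library were alternatives. Single genes were tested by permutation of log2 CPM with scipy 1.17.1, exactly where a group held under 10 libraries and otherwise with 100000 random permutations. Sequences and coordinates came from RefSeq annotation release 106. Figures used matplotlib 3.10.9.

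Named were the 10 members and CFTR, for each gene list the genes called or else the 2 with the smallest p in CF against non-CF, and the 3 genes most correlated with each member. The members and lists, which were chosen with earlier results of these data known, support no independent claim. NOS1AP, GUCY1B2 and HBA1 were listed but not analysed here.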

Additional observations from a re-analysis of the deposited data

Results flagged for a closer look

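Among 20 groups (10 genes in HET and in WT), 1 library stood far from the rest of its group by Dixon's ratio: EDNRB in HET pig 14 was at 59.1 CPM, beside 78.3 to 89.7 CPM in the other HET libraries, with a ratio of 0.627 against a critical value of 0.625. Chance alone flags about 1 group in 20. The CF libraries were not part of this search. Among them, NOS3 in CF pig 1 was at 23.5 CPM, beside 9.52 to 16.1 CPM in the others. Without CF pig 1, NOS3 had an adjusted p of 0.781 for CF against non-CF by edgeR's test.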

How the results depend on the processing

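No member was called in the 4 comparisons of labels, and the other scalings, low-count filters and the number set as a term also called 0, as did the exact Mann-Whitney U test, run for CF against non-CF alone. Calls of members appeared with DESeq2 (1, CF against WT), in the earlier set alone (1, CF against WT), and in the later set alone (2 for CF against non-CF and 1 for CF against HET). Leaving out each library called 0 to 1 members for CF against WT and 0 in the other comparisons.

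Counts over all genes moved more than members. For CF against non-CF, 73 genes became 483 with DESeq2, 0 in the earlier set, 473 in the later set, 148 with the number set as a term, 29 by the Mann-Whitney test (2420 at an unadjusted p of 0.05) and 17 to 203 without single libraries (17 without HET pig 21, 203 without CF pig 4). For CF against WT, 72 became 579 with DESeq2, 7 in the earlier set, 172 with the term, 139 by upper-quartile scaling and 20 to 187 without single libraries (20 without WT pig 12, 187 without WT pig 23). For HET against WT, 1 became 29 with DESeq2, 17 in each set alone and 1 to 3 without single libraries (3 without CF pig 7). For CF against HET, 0 became 57 with DESeq2, 525 in the later set, 4 with the term, 4 by upper-quartile scaling, 1 with no filter and 0 to 3 without single libraries (3 without CF pig 2).

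Directions of members turned mainly within a set. For CF against non-CF the later set gave 0.14 for EDN1, 0.41 for EDN3, 5.4e-05 for NOS1 and -0.037 for GUCY1B3, the earlier set gave 0.071 for EDNRB and -0.074 for NOS2, and the term gave 0.004 for EDN1. For CF against WT the later set gave 0.38 for EDN3 and 0.12 for NOS1, and the earlier set -0.004 for EDNRA. For CF against HET the earlier set gave 0.30 for EDNRB (-0.54 in the later set, -0.065 over both), -0.088 for NOS3 and -0.040 for NPR1, and the later set 0.27 for NOS2 and -0.088 for GUCY1B3. For HET against WT the later set gave 0.054 for EDNRA, 0.29 for EDNRB and 0.19 for NOS1. Leaving out single libraries gave -0.14 to 0.11 for EDN1 (CF against non-CF), -0.15 to 0.091 for NOS2 and -0.023 to 0.10 for GUCY1B3 (CF against HET), -0.020 to 0.12 for ECE1 and -0.005 to 0.19 for NPR1 (HET against WT). The cause was not tested. Of the alternatives for single members, 297 for CF against non-CF, 304 for CF against WT and 303 for HET against WT kept direction and side of the threshold. The order of levels per length was the same from CPM per mean transcript length.

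No paired analysis was possible because each pig number occurs once. With 2 WT libraries in the later set, its comparisons with WT are weak, and EDN1 and EDN2 rest on under 100 counts a library.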
